A study of Homo sapiens with 4 samples.

Results

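Imprinted genes are genes expressed mainly from the copy inherited from the mother or from the copy inherited from the father. They were followed here in HAP1 cells, a nearly haploid human line that derives from the chronic myeloid leukaemia line KBM-7. A list of 39 well-known imprinted genes in 19 domains on 13 chromosomes was drawn up by name, with earlier results of these data known. Of these, 38 were matched to a gene among the 57820 counted, and HYMAI was not. Stranded, poly(A)-selected RNA-seq was compared between 2 dKO libraries, with RING1A and RING1B knocked out, and 2 tKO libraries, with RING1A, RING1B and BAP1 knocked out. The cells of every library were untreated and lacked both RING1 proteins, and no wild-type library was analysed here. BAP1 and RING1A had been interrupted by an inserted STOP cassette, which can leave transcript upstream of it, and the RING1B knockout line was purchased. The labels do not say whether libraries of a genotype came from separate clones, so p-values measure the spread between these libraries only.

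RING1A and RING1B place ubiquitin on lysine 119 of histone H2A, and BAP1 removes it. Imprinted genes lie in clusters under the control of an imprinting control region, a CpG-rich stretch that is DNA-methylated on a single parental copy and keeps that state through life. The methylated copy is recognised by ZFP57 and ZNF445, which recruit TRIM28, SETDB1 and DNMT1. In diploid cells an imprinted gene typically has an active and a silent copy, though for some genes this depends on tissue or isoform. In a cell of haploid origin, a single copy with a single parental state is expected at each locus, which was not tested here. A locus is called on or off below by its counts alone. Parental origin itself cannot be seen in counts, and the usual parent of each gene is given below as background. Polycomb complexes also act at several imprinted clusters, and the comparison asks how the imprinted genes stood when BAP1 was removed from cells without RING1A and RING1B.

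Libraries held between 16054590 and 18455410 gene counts, and both tKO libraries were smaller than both dKO libraries. Levels are given as CPM, the count scaled to a fixed library total, for which 3 counts, taken as the floor, correspond to 0.163 to 0.187 CPM. This floor and the intervals below hold for counting error alone, since PCR copies of a fragment are not separate molecules. BAP1 counts were 2046 and 2010 in dKO 1 and 2, and 158 and 107 in tKO 1 and 2, a log2 fold change of -3.77 (SE 0.19, limma adjusted p = 0.0065). RING1, the symbol of RING1A, was at 12 to 17 counts in all 4 libraries and RNF2, the symbol of RING1B, at 1102 to 1561. Among 11 haematopoietic markers, 8 were at or under the floor, including PTPRC, SPI1 and GATA1. KIT alone passed the filter that removes genes with low values. Summed marker levels ran from 46.7 to 59.2 CPM for the haematopoietic list and from 47.3 to 53.6 CPM for 8 trophoblast markers, of which only TFAP2C passed the filter. Of 9 mesenchymal markers, COL1A1, PDGFRA, THY1 and VIM passed it, COL1A2, COL3A1, DCN, LUM and PDGFRB were at or under the floor, and the summed level was 698 and 659 CPM in dKO and 418 and 622 CPM in tKO. The part of this difference in the results below was not tested. Stretches of the genome with a shifted level, found as windows of 10 Mb whose median log2 ratio to dKO lay beyond 0.5, numbered 4 in tKO 1 and 7 in tKO 2 of 269. For the 22 tested imprinted genes that lay in a window, the window medians were within -0.06 to 0.06 in tKO 1 and -0.09 to 0.12 in tKO 2.

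Promoter sequences show the feature by which several of these loci are recognised. ZFP57 binds the hexanucleotide TGCCGC when it is methylated. RefSeq promoter windows on GRCh38.p14, from 250 bases before to 50 bases after a start site, were found for 25 of the 39 genes, with 55 windows in all because a gene can have several starts. TGCCGC or its reverse complement GCGGCA stood in 23 of the 55 windows (41.8%), which belong to 15 of the genes, some sharing a window. Of all 35116 promoter windows, 16.7% held a match and 2.75% held 2 or more. These shares are not matched for CG content, and a window shared by genes counts for each of them. Whether the imprinted windows hold more matches than other windows of like CG content was not tested. A match is a description of the sequence and not a bound site. The 5 windows below were those of imprinted genes with at least 2 matches. They include an off locus (SNURF) and 4 genes whose tKO and dKO levels did not overlap (MEST, PLAGL1, NAP1L5 and DIRAS3). Levels did not overlap for 31.7% of all tested genes either. MEST was higher in tKO, while PLAGL1, NAP1L5 and DIRAS3 were lower, each with a limma adjusted p of 0.996. A link between matches and levels was not tested. The capitals mark each match.
SNURF (shared with SNRPN), chr15:24954737-24955036, plus strand: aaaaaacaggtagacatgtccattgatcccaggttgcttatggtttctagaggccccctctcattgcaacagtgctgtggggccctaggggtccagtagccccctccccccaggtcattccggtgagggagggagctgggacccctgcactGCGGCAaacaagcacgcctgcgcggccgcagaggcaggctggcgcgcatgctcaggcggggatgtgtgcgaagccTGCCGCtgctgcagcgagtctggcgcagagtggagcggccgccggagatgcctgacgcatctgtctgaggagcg
PLAGL1 (shared with HYMAI), chr6:144008210-144008509, minus strand: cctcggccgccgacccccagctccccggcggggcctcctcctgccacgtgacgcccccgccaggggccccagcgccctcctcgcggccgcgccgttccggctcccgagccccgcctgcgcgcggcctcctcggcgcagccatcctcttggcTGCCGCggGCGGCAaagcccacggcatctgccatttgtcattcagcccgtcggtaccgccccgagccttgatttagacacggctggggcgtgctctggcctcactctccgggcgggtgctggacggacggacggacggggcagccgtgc
MEST, chr7:130491835-130492134, plus strand: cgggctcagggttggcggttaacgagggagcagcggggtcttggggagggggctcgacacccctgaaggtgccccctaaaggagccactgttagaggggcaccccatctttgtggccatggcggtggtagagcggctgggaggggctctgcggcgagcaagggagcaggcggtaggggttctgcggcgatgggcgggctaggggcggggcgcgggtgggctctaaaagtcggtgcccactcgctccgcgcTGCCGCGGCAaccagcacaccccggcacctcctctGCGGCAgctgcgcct
NAP1L5, chr4:88697780-88698079, minus strand: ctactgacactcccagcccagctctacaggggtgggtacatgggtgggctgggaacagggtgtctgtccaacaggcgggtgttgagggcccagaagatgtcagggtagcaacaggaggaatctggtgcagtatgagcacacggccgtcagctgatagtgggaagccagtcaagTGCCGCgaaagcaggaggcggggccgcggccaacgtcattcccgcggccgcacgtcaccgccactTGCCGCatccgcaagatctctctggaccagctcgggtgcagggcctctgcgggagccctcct
DIRAS3, chr1:68050578-68050877, minus strand: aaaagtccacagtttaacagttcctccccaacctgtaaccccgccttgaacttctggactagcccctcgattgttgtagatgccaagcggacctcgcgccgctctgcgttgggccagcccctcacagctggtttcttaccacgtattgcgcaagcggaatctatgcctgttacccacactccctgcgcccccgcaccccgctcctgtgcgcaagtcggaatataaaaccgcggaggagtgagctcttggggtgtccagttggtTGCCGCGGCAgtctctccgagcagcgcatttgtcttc
The MEST window held 3 matches, 2 of which overlap as a palindrome, and the other windows held 2, which overlap in the same way in DIRAS3. CG dinucleotides numbered 18 in the SNURF window, 39 in PLAGL1, 25 in MEST, 18 in NAP1L5 and 21 in DIRAS3. Over all windows the median was 14 and the 75th percentile was 28. The window taken for a gene was the one with most matches, then most CG dinucleotides, and each match itself holds a CG. The H19 window held 0 matches and 6 CG dinucleotides.

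Of the 39 imprinted genes, 24 passed the filter (CPM above 0.5 in at least 2 libraries) and were tested. A further 2, MEG3 and L3MBTL1, had more than 3 counts in some library but did not pass, and 12 had at most 3 counts in every library. Of these 12, 9 had 0 counts in all 4 libraries. An off gene here is one at or under this floor, which limits its level and does not show that it is silent. At least 1 gene passed the filter in 17 of the 19 domains, the exceptions being PEG3 and L3MBTL1. Of 21 genes that are usually paternally expressed, 9 were tested, 1 was low, 10 were at or under the floor and 1 was not matched. Of 8 that are usually maternally expressed, 5 were tested, 1 was low and 2 were at or under the floor. The other 10, whose parental expression depends on tissue or isoform, all passed the filter. Genes of a domain are not separate loci. Among the usually paternal genes at or under the floor, 5 lie in the chromosome 15 cluster and 2 in the PEG3 domain.

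**Figure D1:**
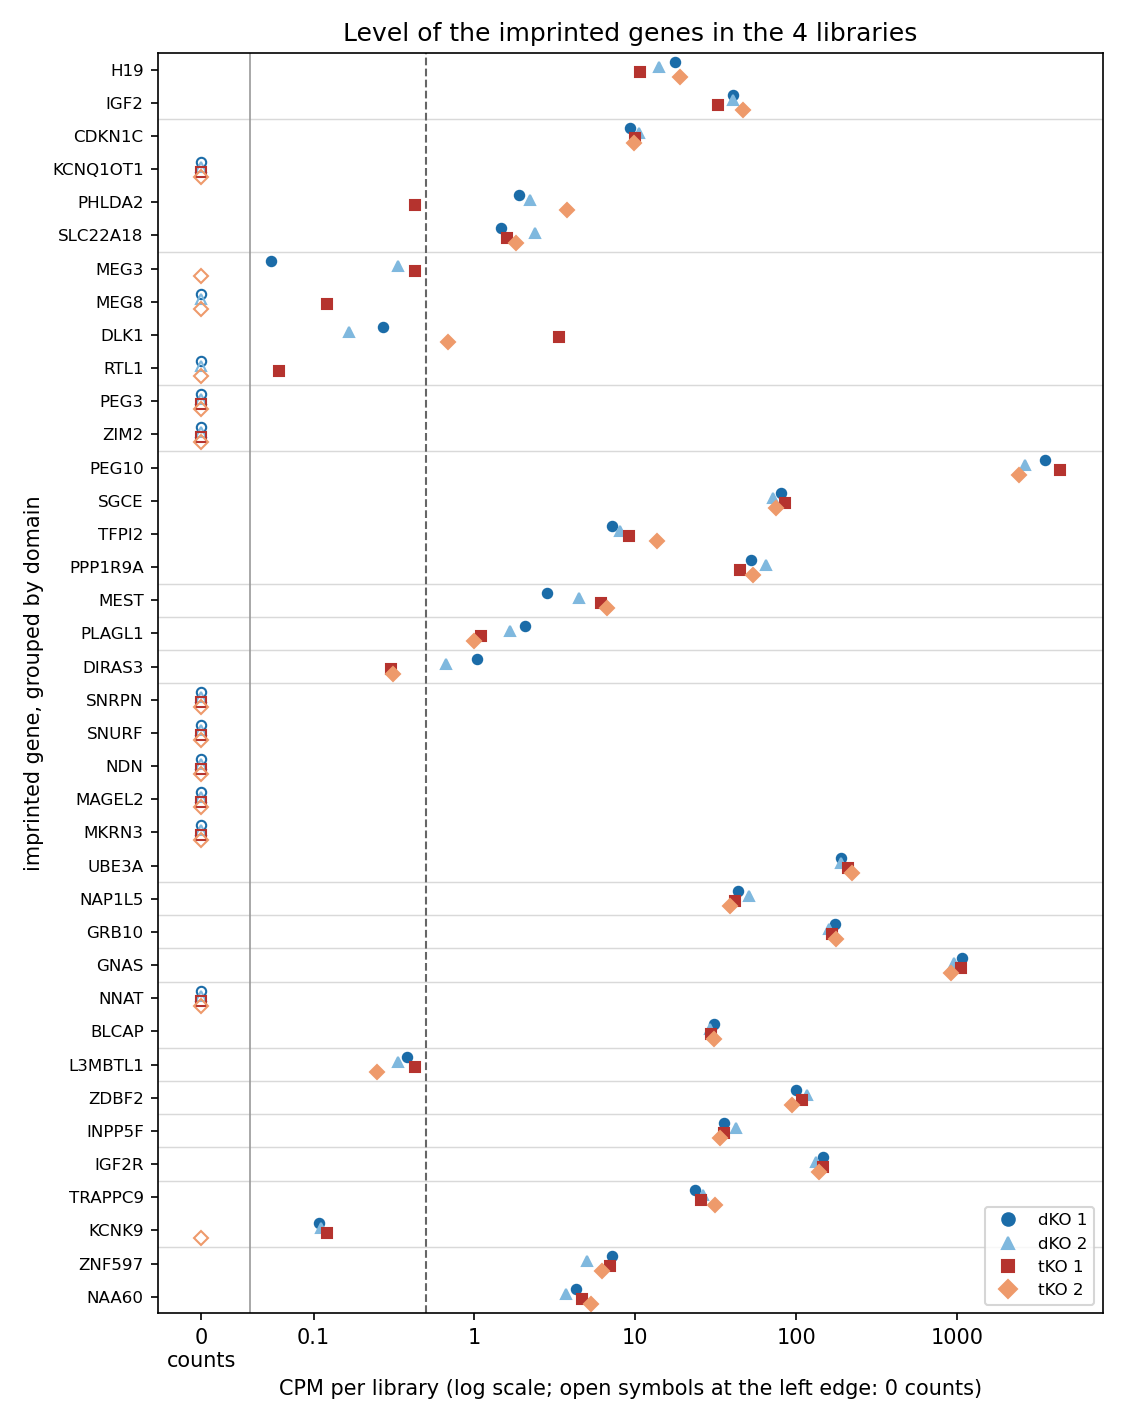
Level of the 38 matched imprinted genes in each library, in CPM on a log axis, with genes grouped by domain and separated by grey lines. Filled symbols are libraries with at least 1 count, open symbols at the left edge are libraries at 0 counts, and the dashed line is the filter at 0.5 CPM. Genes of the chromosome 15 cluster other than UBE3A lie at 0 in all 4 libraries, and PEG10 lies at 2429 to 4342 CPM.

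The chromosome 15 cluster, which is tied to Prader-Willi and Angelman syndromes, split by gene. SNRPN and SNURF, which share a transcript from the imprinting centre and encode a splicing protein and a small upstream protein, had 0 counts in every library. NDN, MAGEL2 and MKRN3, intronless or nearly intronless paternally expressed genes upstream of them, also had 0 counts in every library. Part of the exon sequence is shared with other genes of the same strand for SNRPN (33.6%), SNURF (52.1%) and MAGEL2 (52.9%) in GENCODE release 44. Reads in shared exons are assigned to no gene, and the sharing in release 19, with which the reads were counted, was not analysed here, so the 0 of these 3 genes covers only their unshared exons. NDN and MKRN3 share no exon sequence with a same-strand gene in release 44. SNHG14, the long host transcript that continues from SNURF and runs antisense to UBE3A, had 1 count in tKO 1 and 0 in the other libraries. UBE3A, a ubiquitin ligase that is maternally expressed in neurons and from both copies elsewhere, had 3502 and 3401 counts in dKO and 3444 and 3568 in tKO. These are 190 and 189 CPM in dKO and 210 and 222 CPM in tKO, so that the genotypes did not overlap. The log2 fold change was 0.19 (SE 0.09, limma adjusted p = 0.996).

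On chromosome 11, both genes of the H19 and IGF2 domain were on. H19 (GRCh37 chr11:2016396-2025782), a non-coding RNA that is usually made from the maternal copy, was at 17.8 and 14.1 CPM in dKO and 10.7 and 18.9 CPM in tKO. IGF2, a growth factor that is usually made from the paternal copy, was at 40.7 CPM in both dKO libraries and at 32.8 and 46.9 CPM in tKO. In each gene tKO 1 was the lowest and tKO 2 the highest of the 4 libraries, and the genotypes overlapped. Log2 fold changes were -0.15 (SE 0.28) for H19 and -0.05 (SE 0.18) for IGF2. These reads do not tell which promoter of IGF2 was used, and 25.7% of its exon sequence is shared with same-strand genes, of which INS-IGF2 had 0 counts.

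The neighbouring KCNQ1OT1 domain on chromosome 11 held 3 genes that passed the filter and 1 at 0. KCNQ1OT1, the paternally expressed antisense RNA that silences the domain on its own copy, had 0 counts in all libraries. Its other strand, where KCNQ1 is transcribed, had 46, 46, 17 and 39 reads in dKO 1, dKO 2, tKO 1 and tKO 2. CDKN1C, a cell-cycle inhibitor, was at 9.21 and 10.6 CPM in dKO and 9.93 and 9.78 CPM in tKO. SLC22A18, a membrane transporter, was at 1.46 and 2.39 CPM in dKO and 1.58 and 1.81 CPM in tKO. For both, tKO lay within the range of dKO. PHLDA2, a placental growth inhibitor, was at 1.90 and 2.22 CPM in dKO, 0.426 CPM in tKO 1 and 3.74 CPM in tKO 2.

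The DLK1 and MEG3 domain on chromosome 14 was at or near the floor in dKO. MEG3, a non-coding RNA of the maternal copy, had 1 and 6 counts in dKO and 7 and 0 in tKO. MEG8 had 2 counts in tKO 1 and RTL1, a retrotransposon-derived gene, had 1 count in tKO 1, and both had 0 in the other 3 libraries. DLK1 (GRCh37 chr14:101192042-101204561), a paternally expressed membrane protein that acts on Notch signalling, had 5 and 3 counts in dKO, 55 in tKO 1 and 11 in tKO 2. The DLK1 counts of tKO 1 stood above those of the other 3 libraries, with exact 95% Poisson intervals of 41.4 to 71.6 counts in tKO 1 and 5.49 to 19.7 in tKO 2, against 1.62 to 11.7 in dKO 1 and 0.619 to 8.77 in dKO 2.

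On chromosome 7, the PEG10 domain was on throughout and held the imprinted gene with the highest level. PEG10 (GRCh37 chr7:94285637-94299007), a retrotransposon-derived gene usually expressed from the paternal copy, had 64670 and 47949 counts in dKO and 71259 and 38998 in tKO. It took 0.350% and 0.267% of the gene counts of the dKO libraries and 0.434% and 0.243% of those of the tKO libraries. By counts it ranked 2 and 7 among all genes in dKO and 1 and 10 in tKO, so its level in tKO lay on both sides of dKO, with a log2 fold change of 0.09 (SE 0.28). SGCE, which encodes epsilon-sarcoglycan and starts next to PEG10 on the opposite strand, was at 80.7 and 71.5 CPM in dKO and 85.2 and 74.9 CPM in tKO. PPP1R9A, an actin-binding neurabin, was at 52.0 and 64.9 CPM in dKO and 44.8 and 54.2 CPM in tKO. TFPI2, a protease inhibitor, was at 7.15 and 8.004 CPM in dKO and 9.14 and 13.6 CPM in tKO, with both tKO libraries above both dKO libraries. Its log2 fold change was 0.56 (SE 0.24, limma adjusted p = 0.996), and 0.29 without tKO 2.

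Elsewhere on chromosome 7, GRB10, an adaptor that restrains insulin and growth factor receptors, was at 174 and 160 CPM in dKO and 166 and 176 CPM in tKO. MEST (GRCh37 chr7:130126012-130146306), a paternally expressed gene of the alpha/beta-hydrolase family, was at 2.82 and 4.45 CPM in dKO and 6.09 and 6.66 CPM in tKO. Exons of other genes on the opposite strand lie under 27.6% of the MEST exon sequence, and the counts used here are those of its own strand.

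The PEG3 domain on chromosome 19 was off. PEG3 and ZIM2, zinc-finger genes that share a promoter and part of their exons, had 0 counts in every library, and reads in the shared exons (12.9% of PEG3 and 41.2% of ZIM2) would be assigned to neither. On chromosome 20, GNAS, which encodes the stimulatory G protein alpha subunit and has promoters of differing parental expression, was at 1079 and 956 CPM in dKO and 1055 and 916 CPM in tKO. The pair NNAT and BLCAP, in which NNAT lies inside an intron of BLCAP, was split. NNAT, a paternally expressed proteolipid of the endoplasmic reticulum, had 0 counts in every library, while BLCAP was at 31.0 and 29.0 CPM in dKO and 29.4 and 31.0 CPM in tKO. L3MBTL1, a chromatin reader, had 7 and 6 counts in dKO and 7 and 4 in tKO.

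A pair of growth-inhibiting, paternally expressed genes stood at low levels. PLAGL1 on chromosome 6 (GRCh37 chr6:144261437-144385736), a zinc-finger transcription factor, was at 2.06 and 1.67 CPM in dKO and 1.10 and 0.997 CPM in tKO. DIRAS3 on chromosome 1 (GRCh37 chr1:68511569-68517400), a small GTPase, had 19 and 12 counts in dKO and 5 counts each in tKO 1 and tKO 2. This is 1.03 and 0.667 CPM in dKO and 0.305 and 0.311 CPM in tKO, so that DIRAS3 passed the filter only through the dKO libraries.

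The remaining imprinted genes were on, except KCNK9. IGF2R on chromosome 6, the receptor that clears IGF2, was at 147 and 133 CPM in dKO and 146 and 139 CPM in tKO. NAP1L5 on chromosome 4, a nucleosome assembly protein family member, was at 43.5 and 50.7 CPM in dKO and 41.6 and 38.99 CPM in tKO, with tKO below dKO. ZDBF2 on chromosome 2 was at 99.6 and 116 CPM in dKO and 109 and 93.7 CPM in tKO. INPP5F on chromosome 10, an inositol phosphatase, was at 35.5 and 42.0 CPM in dKO and 35.3 and 33.5 CPM in tKO, again with tKO below dKO, by a narrow margin. On chromosome 8, TRAPPC9, a vesicle-tethering subunit, was at 23.5 and 26.5 CPM in dKO and 25.7 and 31.1 CPM in tKO. Its neighbour KCNK9, a potassium channel, had 2 counts in each dKO library and 2 and 0 in tKO. On chromosome 16, ZNF597 was at 7.21 and 5.003 CPM in dKO and 6.95 and 6.17 CPM in tKO. NAA60, an acetyltransferase at the same locus, was at 4.28 and 3.72 CPM in dKO and 4.63 and 5.29 CPM in tKO, where tKO lay above dKO.

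Per kilobase of exon, the order of levels was led by PEG10 with 484 RPKM (CPM divided by exon length in kilobases) as the mean of the 4 libraries (363 to 649). GNAS followed with 45.1 RPKM (41.2 to 48.5), NAP1L5 with 22.8 (20.3 to 26.5), GRB10 with 17.3 (16.3 to 17.96), UBE3A with 10.7 (9.93 to 11.7) and ZDBF2 with 9.59 (8.60 to 10.6). The ranges of PEG10, GNAS, NAP1L5 and GRB10 did not overlap one another, while those of UBE3A and ZDBF2 did. The 9 genes from IGF2R, with 6.23 RPKM, down to SGCE, with 3.74 RPKM, overlapped their neighbours in the order. A mean above 1 RPKM was reached by 19 genes, and the lowest of the tested genes were PLAGL1 (0.227), DIRAS3 (0.218) and DLK1 (0.213). Exon length here is the union of all exons in GENCODE release 44, while the counts were made with release 19. It was 1917 bases for NAP1L5 and 20876 for SGCE, so the order depends on the annotation as well as on the level. By CPM, UBE3A stood above NAP1L5, and SGCE stood above H19.

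Between genotypes, 0 of the 24 tested imprinted genes were differentially expressed (limma adjusted p below 0.05 and absolute log2 fold change above 1), and 0.0132% of all 15136 tested genes were. The adjusted p of the 24 lay between 0.996 and 0.999. Without adjustment, limma gave a p below 0.05 for 3 of the 24, DLK1, MEST and DIRAS3, where 3.55% of all tested genes had one. Of these, 2 were higher in tKO, DLK1 and MEST (1.4% of all tested genes), and 1 was lower, DIRAS3 (2.15%). DLK1 passed the filter only through tKO and DIRAS3 only through dKO, so that both had to differ, and among the other 22 genes MEST alone had such a p. The count of 3 at an unadjusted p below 0.05 was 5 with the edgeR quasi-likelihood test (3.502% of all tested genes) and 2 with DESeq2 (2.12%), and 0 imprinted genes were differentially expressed by either. In all, 13 of the 24 were higher in tKO, against 49.7% of all tested genes. The median log2 fold change was 0.01 over the imprinted genes and -0.0014 over all tested genes, and the median absolute value was 0.16 and 0.12. An absolute log2 fold change above 1 was found for 2 genes, DLK1 and DIRAS3, against 1.78% of all tested genes, and for 0 of the 22 that did not enter through a single genotype. The genotypes did not overlap for 9 of the 24, against 31.7% of all tested genes. Both tKO libraries lay above both dKO libraries for 5 genes, DLK1, TFPI2, MEST, UBE3A and NAA60 (15.8% of all tested genes). Both lay below for 4 genes, PLAGL1, DIRAS3, NAP1L5 and INPP5F (15.9% of all tested genes).

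**Figure D2:**
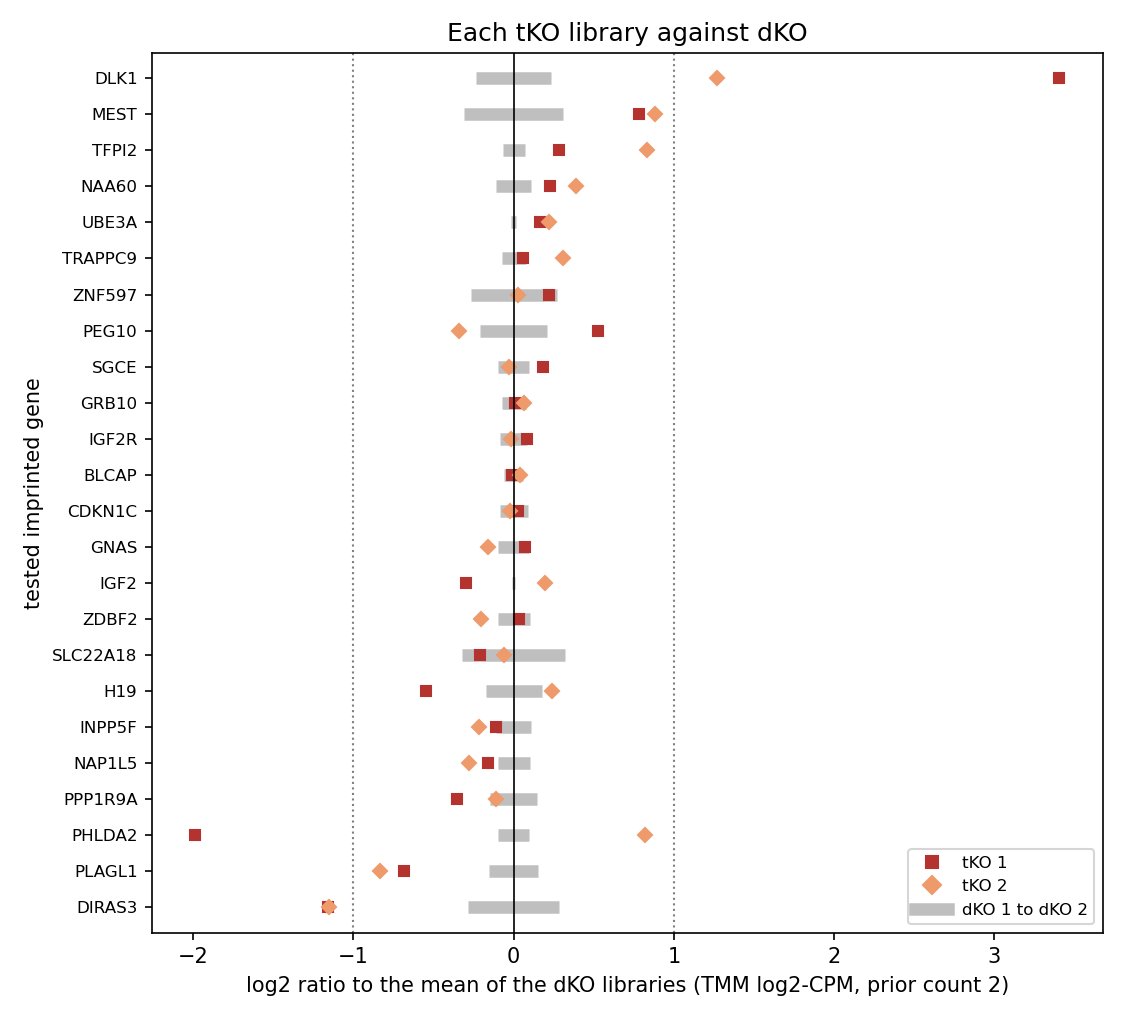
Log2 ratio of each tKO library to the mean of the dKO libraries for the 24 tested imprinted genes, ordered by log2 fold change. Squares are tKO 1, diamonds are tKO 2, and grey bars show the distance between dKO 1 and dKO 2 centred on 0. DLK1 lies at 3.40 and 1.27 and DIRAS3 at -1.16 and -1.15, while PHLDA2 lies at -1.99 in tKO 1 and 0.82 in tKO 2.

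DLK1 had the largest fold change of the tested imprinted genes, with a log2 value of 2.34 (SE 0.71, limma adjusted p = 0.996). With 3 to 5 counts in dKO its fitted fold depends on the prior count and the tool, being 2.76 with a prior count of 0.25, 3.17 with edgeR and 3.22 with DESeq2. MEST averaged 3.63 ± 1.15 CPM (SD, n = 2) over the dKO libraries, and 6.38 ± 0.405 CPM (SD, n = 2) was its tKO level. Its log2 fold change was 0.83 (SE 0.28, limma adjusted p = 0.996), with ratios of 0.78 in tKO 1 and 0.88 in tKO 2, and 0.52 to 1.14 when a library was left out. The tKO libraries lay close together in MEST, and the dKO libraries were further apart. DIRAS3 had a log2 fold change of -1.16 (SE 0.42, limma adjusted p = 0.996), and its 5 counts in each tKO library have an exact 95% Poisson interval of 1.62 to 11.7 counts. The intervals of dKO 1 (11.4 to 29.7 counts) and dKO 2 (6.20 to 21.0 counts) overlap that interval. PLAGL1 had a log2 fold change of -0.76 (SE 0.32, limma adjusted p = 0.996), with -0.68 in tKO 1 and -0.83 in tKO 2.

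The tKO libraries also differed from each other. PHLDA2 had 35 and 40 counts in dKO, 7 in tKO 1 and 60 in tKO 2, so that the tKO libraries were 20.7% and 181% of the dKO mean and 8.76-fold apart, against 1.17-fold within dKO. The groups overlapped, and the log2 fold change of -0.58 (SE 0.83, limma adjusted p = 0.996) averages libraries on opposite sides of dKO. Without tKO 2, PHLDA2 had a log2 fold change of -1.99 and was differentially expressed (limma adjusted p = 0.00052), in a fit where 1.17% of all tested genes were, and without tKO 1 the value was 0.82 (limma adjusted p = 0.178). More than 2-fold apart between the tKO libraries were 2 of the 24 imprinted genes, PHLDA2 and DLK1, against 6.04% of all tested genes. Between the dKO libraries 0 of the 24 were, against 1.5% of all tested genes. The median absolute log2 distance within the tKO pair was 0.18 over the imprinted genes and 0.20 over all tested genes, and within the dKO pair it was 0.20 and 0.14.

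**Figure D3:**
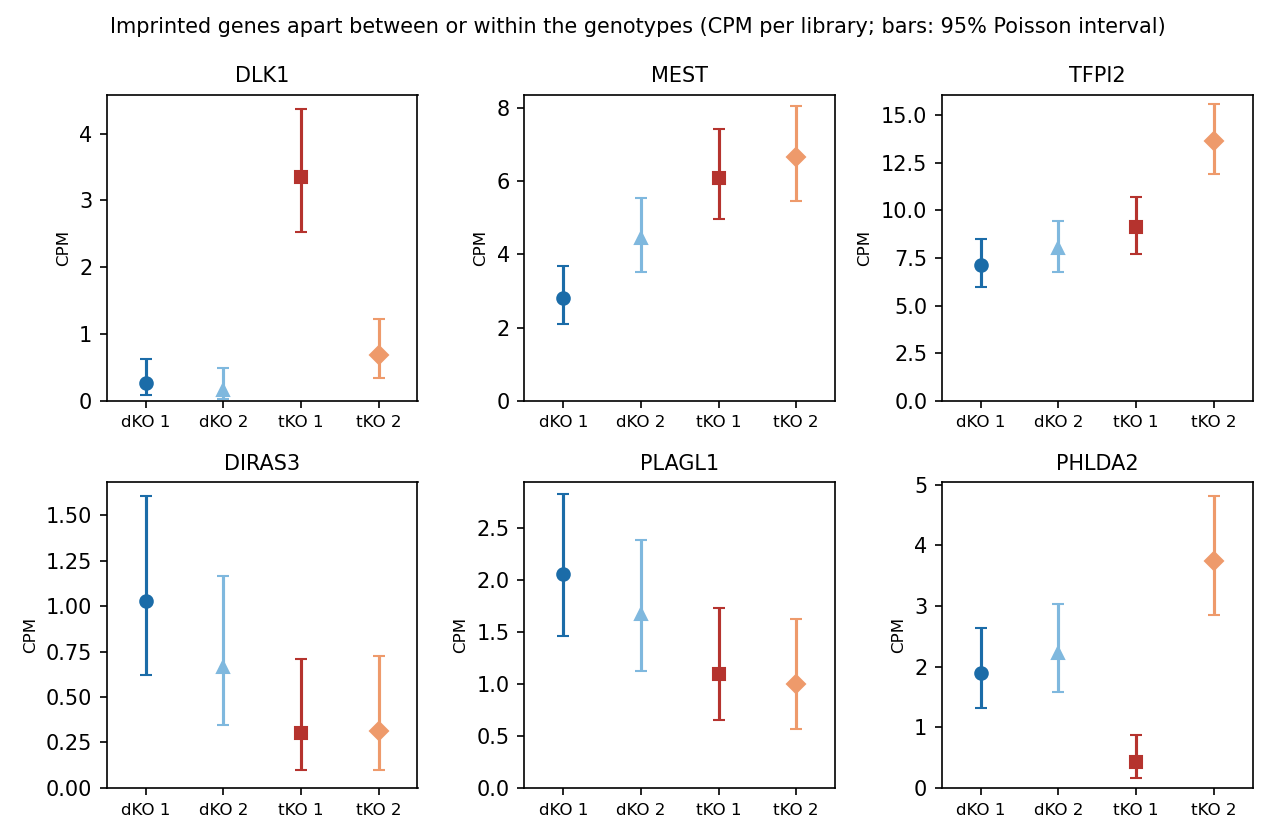
CPM per library of 6 imprinted genes whose levels stood apart between the genotypes or within tKO, chosen after their values were seen. Points are single libraries and bars are exact 95% Poisson intervals of the count, which cover counting error only. MEST and TFPI2 lie higher in both tKO libraries, PLAGL1 and DIRAS3 lie lower in both, and DLK1 and PHLDA2 differ between tKO 1 and tKO 2.

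Regulators that keep imprints were next compared, with 14 of 15 matched to counted genes, UHRF1 being the exception. ZFP57, whose motif is shown above, had 0 counts in all 4 libraries, and DPPA3, NLRP2, NLRP5, NLRP7, KHDC3L and CTCFL were at or under the floor. The other 7, ZNF445, TRIM28, SETDB1, DNMT1, CTCF, SMCHD1 and EHMT2, passed the filter. None of these 7 had an adjusted p below 0.05 or an unadjusted p below 0.05 in limma, the edgeR quasi-likelihood test or DESeq2, and their median log2 fold change was 0.03. DNMT1, the maintenance DNA methyltransferase, was at 374 and 340 CPM in dKO and 368 and 362 CPM in tKO. TRIM28, the co-repressor recruited by ZFP57 and ZNF445, was at 560 and 454 CPM in dKO and 574 and 565 CPM in tKO. ZNF445 was at 100.4 and 91.9 CPM in dKO, 96.9 CPM in tKO 1 and 51.8 CPM in tKO 2, and it lies on chromosome 3 in a window whose median log2 ratio in tKO 2 was -0.92.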

How the data were processed

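Transcription was measured in 2 dKO and 2 tKO libraries. Per the labels, libraries were made with a stranded mRNA kit. The authors trimmed reads with cutadapt (1.12) and Trim Galore (0.4.4), removed ribosomal reads with bowtie (1.2) and mapped the rest to GRCh37 with STAR (2.5.2b), allowing 6 mismatches and 20 loci. The deposited values are raw counts of uniquely mapped reads per gene from STAR, in 3 columns (unstranded and both strands), with replicates not pooled. Genes were those of GENCODE release 19. Column 4, the strand of this kit, was used, and the other strand held 4.01% to 4.24% of stranded gene reads. Reads over exons of more than 1 gene, 1.84% to 1.86% of reads, are counted for no gene. Libraries were grouped by genotype label.

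Positions, symbols, exon lengths and exon sharing came from GENCODE release 44 lifted to GRCh37, not the release of the counts, which covered 55538 of 57820 identifiers. CPM used column totals, and RPKM the exon union. The 15136 genes that exceeded a CPM of 0.5 in 2 or more libraries were tested with limma (3.58.1) on log2-CPM with TMM factors from edgeR (4.0.16) and a prior count of 2, with a mean-variance trend and Benjamini-Hochberg adjustment over all tested genes. A prior count makes fold changes of low genes too small. Differential expression required an adjusted p below 0.05 with a log2 fold change beyond 1 in size. The filter, TMM and thresholds follow the study, and the prior count and trend were chosen here. All 39 imprinted genes are accounted for. Values per library are given for tested genes and counts for the others. Full statistics are given for those past an unadjusted p of 0.05, over 2-fold between groups or over 2-fold apart within a genotype, and UBE3A, TFPI2, PLAGL1, H19, IGF2 and PEG10 were added after their values were seen. The imprinted genes, the other lists and the rules were chosen with earlier results of these data known. Alternatives were DESeq2 (1.42.0), the edgeR quasi-likelihood test, limma-voom, limma with no trend, library totals, RLE factors, a filter at CPM above 5 or none, a prior count of 0.25, unstranded counts, a replicate block and leaving out each library, in R (4.3.3).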

Additional observations from a re-analysis of the deposited data

How the results depend on the processing

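The count of differentially expressed imprinted genes was 0 under the 11 alternatives that kept all libraries, and 0 to 1 when a single library was left out, the 1 being PHLDA2 without tKO 2. The count at an unadjusted p below 0.05 was 3, and it became 5 with the edgeR quasi-likelihood test (3.502% of all tested genes), 1 with the filter at CPM above 5 (2.97%), and 0 to 8 when a library was left out (0 without dKO 1, 1 without dKO 2, 8 without tKO 1 and 7 without tKO 2, where 1.70%, 0.801%, 17.98% and 10.6% of all tested genes had such a p). It was 4 without a trend (4.63%), with unstranded counts (3.58%) and without a filter (5.55%), where DLK1 was no longer among them. With a library left out, the lone library of its genotype is assumed to vary like the other genotype. Adjusted p-values of limma below 0.05 with a log2 fold change under 1 were then found for TFPI2 (0.83, adjusted p = 0.0095) and MEST (0.88, adjusted p = 0.049) without tKO 1, and for PEG10 (0.52, adjusted p = 0.015) without tKO 2, where 8.34% and 2.91% of all tested genes passed, so that these are no results about the imprinted genes. Without tKO 2, TFPI2 was at 0.29 (adjusted p = 0.828) and MEST at 0.78 (adjusted p = 0.219), and the ranges without 1 library were 0.29 to 0.83 and 0.52 to 1.14. The count more than 2-fold apart between tKO libraries was 2, and it became 5 without a filter and 0 at CPM above 5, where DLK1 and PHLDA2 were not tested. The log2 fold change of BAP1 kept its direction throughout, at -3.77 without a trend (adjusted p = 0.384) and -3.78 without a filter (adjusted p = 0.734), and at -4.05 to -3.50 when a library was left out, with the call lost without dKO 1 or without dKO 2 (limma adjusted p = 0.9996 and 0.99998). The median log2 fold change of the tested imprinted genes lay between -0.0057 and 0.022 with all libraries and between -0.045 and 0.070 when a library was left out, so that its sign was not fixed. DLK1 did not pass the filter without either tKO library, nor DIRAS3 without either dKO library. The cause of these changes was not tested. Whether same-numbered libraries were prepared as pairs is not known, and a correlation of their deviations of 0.058 over genes cannot settle it. The fit with a replicate block gave 0 differentially expressed imprinted genes and 4 at an unadjusted p below 0.05. In that fit 13 of all tested genes were differentially expressed and 4.94% had such a p.

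Of 350 log2 fold changes of single imprinted genes under the alternatives, 25 turned direction, in 13 genes whose absolute value was at most 0.58, and 21 of these came from leaving out a library. PHLDA2 became 0.0095 with edgeR and 0.0099 with DESeq2, and CDKN1C became -0.0011 with library totals and -0.0057 without a filter. Ranges without 1 library were -0.55 to 0.24 for H19, -0.30 to 0.19 for IGF2, -0.088 to 0.090 for CDKN1C, -1.99 to 0.82 for PHLDA2, -0.46 to 0.19 for SLC22A18, -0.34 to 0.52 for PEG10, -0.028 to 0.18 for SGCE, -0.035 to 0.11 for GRB10, -0.16 to 0.071 for GNAS, -0.045 to 0.070 for BLCAP, -0.21 to 0.032 for ZDBF2, -0.049 to 0.11 for IGF2R and -0.14 to 0.39 for ZNF597. With 3 counts as the floor, the 12 genes at or under it cannot be compared between genotypes at this depth.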

Other observations

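A second list of 73 imprinted or candidate imprinted genes, many with imprinting in only some tissues, had 60 members matched to counted genes. Of these, 27 passed the filter, 5 were low and 28 were at or under the floor. None of the 27 had an adjusted p below 0.05 by limma, the edgeR quasi-likelihood test or DESeq2, and 1 had an unadjusted p below 0.05 by each tool, near the share over all tested genes (3.55%, 3.502% and 2.12%) and thus no result about the list, with a limma median log2 fold change of 0.0019. The gene so named by limma was LPAR6, a receptor for lysophosphatidic acid that lies in an intron of RB1 on the opposite strand. LPAR6 had 27 and 48 counts in dKO and 9 and 5 in tKO. The genotypes did not overlap, as for 31.7% of all tested genes. Its log2 fold change was -1.97 (SE 0.44, limma adjusted p = 0.911). RB1, the retinoblastoma tumour suppressor, had a log2 fold change of -0.06.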
